A study of Homo sapiens with 12 samples.

Results

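The metallothionein genes were read across the 6 groups of an RNA sequencing study of U87-MG, an established human glioblastoma cell line. The members were the 7 genes MT1A, MT1E, MT1F, MT1G, MT1M, MT1X and MT2A, chosen by symbol among 57773 gene rows of the deposited expression table; the rule itself reads no measured value. Their rows carry the Ensembl identifiers ENSG00000205362 (MT1A), ENSG00000169715 (MT1E), ENSG00000198417 (MT1F), ENSG00000125144 (MT1G), ENSG00000205364 (MT1M), ENSG00000187193 (MT1X) and ENSG00000125148 (MT2A). The groups were resistant cells under dBET6, JQ1 or DMSO and parental cells under dBET6, JQ1 or DMSO, each drug at 1000 nM, all for 24 h, with 2 polyA RNA libraries a group and 12 libraries in all. Resistant cells were U87 cells with acquired resistance to JQ1, parental cells were the line they came from, and DMSO was the vehicle. All cells were labelled as grown in medium with serum. Whether the resistant line was 1 clone, whether it was kept in JQ1 before the experiment, and whether the 2 libraries of a group came from separate cultures was not stated in the labels, so p-values measure the spread between these libraries, which may be technical.

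Metallothioneins are small cysteine-rich proteins that bind zinc and copper and buffer them in the cell. Their genes lie in a cluster on chromosome 16, and zinc, cadmium, glucocorticoids and oxidative stress are known to raise their transcription. Metals act through the zinc-sensing transcription factor MTF1, which binds metal response elements in the promoters and also drives the zinc exporter gene SLC30A1. JQ1 displaces the BET proteins, readers of acetylated histones, from chromatin, and dBET6 joins a JQ1-derived BET ligand to a group that recruits the ubiquitin ligase component cereblon, so that BET proteins are degraded. The comparisons ask what each compound does to the genes in each line, how the compounds differ at matched dose and time, and how the lines differ.

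The promoters of the 2 most abundant members, MT2A and MT1X, are shown because only these 2 of the 7 members matched the RefSeq promoter table used here (GRCh38.p14). Each window runs from 250 bases before the start of the gene to 50 bases after it, 5′ to 3′. The MT2A window is chr16:56608334-56608633 on the plus strand and the MT1X window is chr16:56682220-56682519 on the plus strand. Capitals mark the core of the metal response element, spelled TGCGCNC or TGCACNC and searched on both strands.
MT2A: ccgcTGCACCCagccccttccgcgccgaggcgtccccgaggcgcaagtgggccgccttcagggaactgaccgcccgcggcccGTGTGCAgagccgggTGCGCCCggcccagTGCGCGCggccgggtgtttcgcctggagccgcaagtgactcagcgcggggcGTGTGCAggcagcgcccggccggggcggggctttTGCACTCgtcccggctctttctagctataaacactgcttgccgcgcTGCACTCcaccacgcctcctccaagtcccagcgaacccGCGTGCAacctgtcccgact
MT1X: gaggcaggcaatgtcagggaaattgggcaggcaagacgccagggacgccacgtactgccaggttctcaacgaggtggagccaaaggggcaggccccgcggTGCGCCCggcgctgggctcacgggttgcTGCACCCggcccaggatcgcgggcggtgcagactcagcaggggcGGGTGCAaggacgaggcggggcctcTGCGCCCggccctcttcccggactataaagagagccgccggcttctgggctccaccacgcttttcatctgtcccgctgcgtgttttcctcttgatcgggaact

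The MT2A window held 8 matches to the metal response element core and the MT1X window held 4. Of 35116 RefSeq promoter windows of the same length, 29.6% held at least 1 match, 0.601% held at least 4 and 0.0199% held at least 8. The antioxidant response element core, spelled TGACNNNGC or TGAGNNNGC, occurred 1 time in MT2A and 2 times in MT1X on either strand, and 29.1% of all windows held at least 1 match and 5.13% at least 2. The TATA box, spelled TATAAA, occurred 1 time in each window, at position −29 from the start in MT2A and −30 in MT1X, and 11.5% of all windows held it. Such matches describe the letters of the windows and show no binding.

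**Figure D1:**
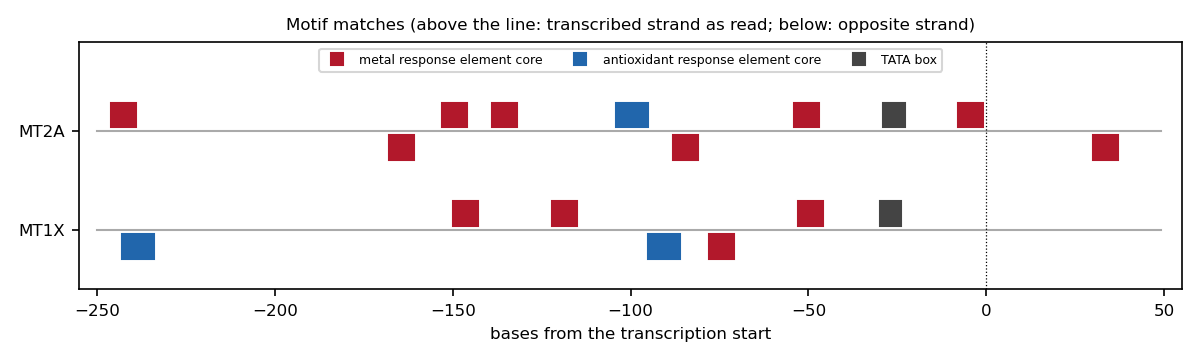
Matches to the metal response element core, the antioxidant response element core and the TATA box in the MT2A and MT1X promoter windows, by distance in bases from the start of the gene. MT2A has 8 metal response element matches spread over the window, while the 4 of MT1X lie between positions −150 and −53.

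Libraries held 24732177 to 40388589 estimated counts. Of the 57773 genes, 19093 passed the filter on low counts and were tested, with adjusted p under 0.05 as the threshold for a call. The 7 mesenchymal markers of such glioma lines were at 50.8 FPKM or more in every library, led by VIM. FPKM are fragments scaled by transcript length, as deposited, and their scaling between libraries is not known here. The astroglial markers reached at most 16.7 FPKM, for SLC1A3, and GFAP was at 1.58 to 6.39 FPKM. The highest neuronal value was 10.6 FPKM for SNAP25, and the highest oligodendroglial value was 4.51 FPKM for MBP. Of the leukocyte, endothelial and epithelial markers looked at, the highest values were 6.30 FPKM for KRT8, 6.14 FPKM for CD14 and 2.96 FPKM for CDH1.

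The dBET6 libraries differed from the others in composition, and this bears on every dBET6 value below. The deposited FPKM summed to 1711308 to 2298108 in dBET6 libraries, against 757817 to 812174 in JQ1 libraries and 649818 to 685757 in DMSO libraries. The TMM scaling factors were 0.610 to 0.824 in dBET6 libraries and 1.12 to 1.30 in the other 8, and mitochondrial mRNAs took 3.02 to 3.75% of counts in dBET6 libraries and 1.40 to 2.59% in the others. Fold changes are given after TMM scaling, a trimmed mean that sets the bulk of genes level between libraries, unless another scaling is named. Under dBET6 against DMSO the median log2 change of all tested genes was −0.06 in resistant and −0.01 in parental cells by TMM, but −1.14 and −0.65 by total counts, −1.57 and −1.26 on log2(TPM + 1), and −2.12 and −1.78 by the summed mitochondrial mRNAs. For JQ1 against DMSO, the same median was 0.01 in both lines by TMM, −0.17 in resistant and −0.10 in parental cells by total counts, −0.23 and −0.20 on log2(TPM + 1), and −0.56 and −0.29 by mitochondrial mRNAs. The share of called genes that were higher in dBET6 was 47.5% in resistant and 48.5% in parental cells by TMM, against 22.5% and 30.6% by total counts, 7.35% and 8.77% on log2(TPM + 1), and 8.94% and 11.4% by mitochondrial mRNAs. For JQ1 it was 47.4% in resistant and 46.7% in parental cells by TMM, against 28.3% and 36.5% by total counts, 21.3% and 27.5% on log2(TPM + 1), and 6.67% and 21.4% by mitochondrial mRNAs. Fewer cells, less RNA per cell and less transcript from a gene cannot be told apart in bulk libraries without an added standard.

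Almost all metallothionein RNA came from 3 of the 7 genes. MT2A, the widely expressed main human isoform, was at 3243 to 11122 FPKM with a median of 6776 over the 12 libraries, and it ranked between 4th and 44th of all rows. MT1X lay at 781 to 8340.2 FPKM with a median of 1963, and MT1E at 138 to 1244 FPKM with a median of 573. MT1F followed at 31.6 to 99.4 FPKM. MT1G and MT1M stayed at or below 6.83 FPKM, and MT1A was listed at 0 in 9 of 12 libraries, had at most 2 estimated counts in the other 3, and was not tested. In DMSO libraries of both lines the order was MT2A, MT1X, MT1E and MT1F, and these levels did not overlap between neighbours in that order. Under JQ1 in resistant cells the first 2 drew level, with MT2A at 7141 and 9300.0 FPKM and MT1X at 7121 and 8340.2 FPKM.

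Summed over the members, metallothionein RNA was at 12551 and 12767 FPKM in resistant dBET6 libraries, 15045 and 18653 in resistant JQ1 libraries, and 8007 and 8363 in resistant DMSO libraries. The sum in parental cells was 6431 and 7564 FPKM under dBET6, 16003 and 15271 under JQ1, and 5036 and 6716 in DMSO. Both JQ1 groups lay above every DMSO library, and the parental dBET6 libraries overlapped the parental DMSO libraries. As a share of all transcripts (TPM, each transcript's length-scaled share of its library) the picture under dBET6 turned round: the members held 0.547 and 0.555% in resistant dBET6 libraries and 0.370 and 0.442% in parental dBET6 libraries, below every DMSO library at 0.750 to 1.26%. JQ1 libraries held 1.95 to 2.30% of TPM, above every DMSO library on this scale too.

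**Figure D2:**
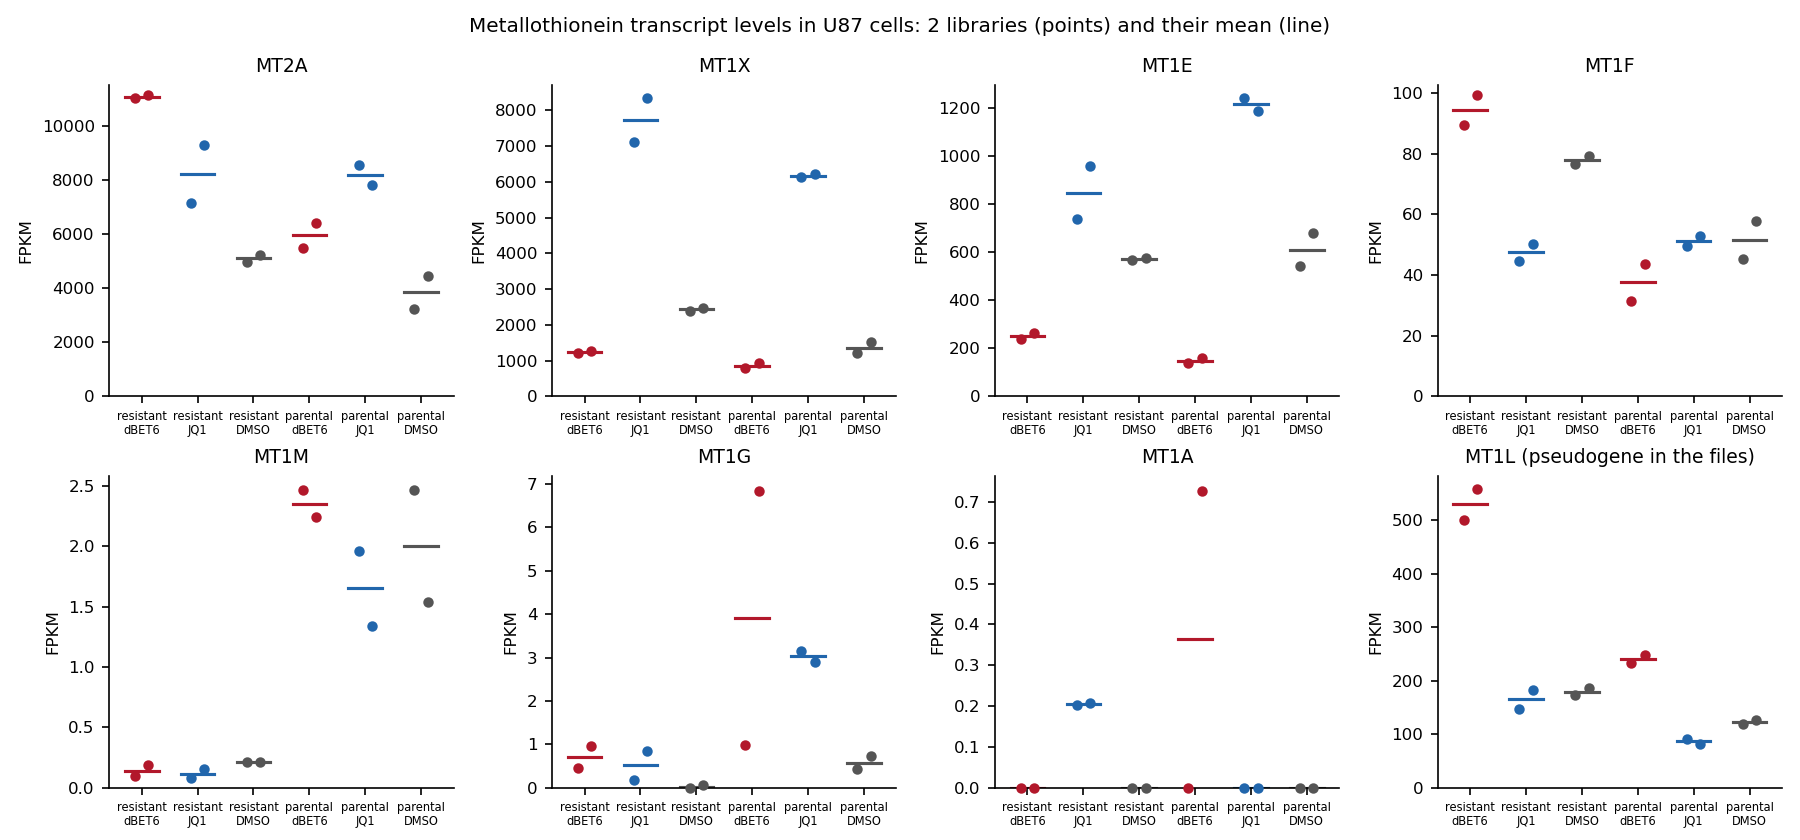
Deposited FPKM of the 7 members and of MT1L in each of the 12 libraries, 1 panel a gene, with groups from left to right as resistant dBET6, JQ1 and DMSO and then parental dBET6, JQ1 and DMSO; points are libraries and bars are group means of 2. Within each line MT1X is highest under JQ1, at 6142 to 8340.2 FPKM over both lines, and lowest under dBET6, at 781 to 1279.7 FPKM, while MT2A is highest in the resistant dBET6 libraries at 11010 and 11122 FPKM.

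In parental cells the 3 abundant members rose under JQ1, MT1X most. MT1X was at 6142 and 6206 FPKM under JQ1 and at 1203 and 1526 FPKM in DMSO. Both JQ1 libraries lay far above both DMSO libraries, and the log2 fold change was 2.30 ± 0.12 (SE; adjusted p = 2.09e-11). MT2A was at 8562 and 7819 FPKM under JQ1 and at 3243 and 4450 FPKM in DMSO, and MT1E was at 1244 and 1189 FPKM under JQ1 and at 542 and 679.5 FPKM in DMSO. Neither gene's groups overlapped, and both rose, MT2A by 1.12 ± 0.17 (adjusted p = 0.000182) and MT1E by 1.11 ± 0.14 (adjusted p = 1.88e-05) on the log2 scale. All 3 rises kept their direction and their call by total counts, mitochondrial mRNAs and log2(TPM + 1).

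MT1F, at 49.5 and 52.8 FPKM under JQ1 and 45.3 and 57.8 FPKM in DMSO in parental cells, had overlapping groups and a log2 fold change of −0.04 ± 0.11 (adjusted p = 0.782). MT1M likewise overlapped, at 1.96 and 1.34 FPKM under JQ1 and 2.46 and 1.54 FPKM in DMSO (−0.22 ± 0.31, adjusted p = 0.599). MT1G rested on 16 and 15 estimated counts under JQ1 and 2 and 4 in DMSO. It rose by 2.50 ± 0.79 on the log2 scale (adjusted p = 0.00978), but the call was lost with DESeq2 (adjusted p = 0.0805) and without parental DMSO replicate 1 (2.06, adjusted p = 0.0892). In all, 4 of the 6 tested members rose and 0 fell, with a median log2 change of 1.12 against 0.01 over all tested genes. By the same rule 22.8% of all tested genes rose and 26.1% fell.

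In resistant cells JQ1 moved the members apart: MT1X, MT2A and MT1E rose and MT1F fell. MT1X was at 7121 and 8340.2 FPKM under JQ1 and at 2400.4 and 2471 FPKM in DMSO. The groups were well separated, and the log2 change was 1.76 ± 0.12 (adjusted p = 9.69e-10), called by every scaling. MT1F, the gene left level by JQ1 in parental cells, was at 44.7 and 50.2 FPKM under JQ1 and at 76.7 and 79.3 FPKM in DMSO. Both JQ1 libraries lay below both DMSO libraries, and MT1F fell by 0.73 ± 0.11 on the log2 scale (adjusted p = 2.11e-06), lower and called by every scaling.

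MT2A was at 7141 and 9300.0 FPKM under JQ1 and at 4962 and 5236 FPKM in DMSO in resistant cells, without overlap, and its log2 change was 0.71 ± 0.16 (adjusted p = 0.00467). By total counts it was 0.51 (adjusted p = 0.0660) and by mitochondrial mRNAs 0.14 (adjusted p = 0.597), so that its call rested on the scaling. MT1E, at 738 and 961 FPKM under JQ1 and 568 and 578 FPKM in DMSO, was also separated and rose by 0.64 ± 0.14 (adjusted p = 0.00212). Its change did not pass with 3 other scalings, at 0.44 by total counts (adjusted p = 0.05001), 0.07 by mitochondrial mRNAs (adjusted p = 0.802) and 0.30 on log2(TPM + 1) (adjusted p = 0.0795). MT1M had 6 estimated counts under JQ1 and 13 in DMSO over both libraries, and MT1G had 4 and 1. Neither passed the test, with log2 changes of −0.80 ± 0.66 (adjusted p = 0.358) and 1.95 ± 1.49 (adjusted p = 0.314). The count for JQ1 in resistant cells was 3 higher and 1 lower of 6, with a median of 0.67 against 0.01, where 20.8% of all tested genes rose and 23.1% fell.

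dBET6 split the family in both lines: MT1E and MT1X fell on every scale, while the direction of MT2A depended on the scaling. In resistant cells MT1E was at 239 and 264 FPKM under dBET6 and at 568 and 578 FPKM in DMSO. In parental cells it was at 138 and 160.0 FPKM under dBET6 and at 542 and 679.5 FPKM in DMSO. The dBET6 libraries were below the DMSO libraries in each line, and MT1E fell by 1.28 ± 0.14 in resistant cells (adjusted p = 2.35e-06) and by 1.99 ± 0.15 in parental cells (adjusted p = 2.8e-08) on the log2 scale. By total counts its log2 change was −2.36 in resistant and −2.62 in parental cells.

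MT1X was at 1213 and 1279.7 FPKM under dBET6 and at 2400.4 and 2471 FPKM in DMSO in resistant cells. It was at 781 and 939 FPKM under dBET6 and at 1203 and 1526 FPKM in DMSO in parental cells. Neither line's groups overlapped, and the log2 change was −0.80 ± 0.12 in resistant (adjusted p = 7.26e-06) and −0.50 ± 0.12 in parental cells (adjusted p = 0.00107), negative and called by every scaling as well. MT1X therefore stood above DMSO under JQ1 and below DMSO under dBET6 in both lines.

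MT2A was at 11010 and 11122 FPKM under dBET6 and at 4962 and 5236 FPKM in DMSO in resistant cells, and at 5478 and 6411 FPKM under dBET6 and 3243 and 4450 FPKM in DMSO in parental cells. On this scale dBET6 libraries were the higher ones in both lines. By TMM MT2A rose by 1.18 ± 0.17 in resistant (adjusted p = 5.27e-05) and 0.69 ± 0.16 in parental cells (adjusted p = 0.00261), whereas its log2 change was 0.11 and 0.06 by total counts, −0.69 and −0.70 on log2(TPM + 1), and −0.88 and −1.07 by mitochondrial mRNAs. In TPM itself MT2A was at 4799 and 4840 in resistant dBET6 libraries and 7636 and 7876 in resistant DMSO libraries. Parental MT2A was at 3152 and 3746 TPM under dBET6 and at 4833 and 6489 TPM in DMSO. Each TPM comparison put the dBET6 libraries below, the opposite of FPKM. Set against the median of all genes on the same scale, MT2A lay above it under dBET6 and MT1E below it, by TMM and on log2(TPM + 1). Total-count and mitochondrial mRNA scaling shift all genes of a library together. By construction they give about the same distance to the median as TMM.

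MT1F in resistant cells was at 89.4 and 99.4 FPKM under dBET6 and 76.7 and 79.3 FPKM in DMSO. It was 0.25 ± 0.11 higher by TMM (adjusted p = 0.041), but lower by total counts (−0.83), log2(TPM + 1) (−1.50) and mitochondrial mRNAs (−1.82). The TMM call was lost without resistant dBET6 replicate 1 (0.25, adjusted p = 0.0911), resistant dBET6 replicate 2 (0.24, adjusted p = 0.119), resistant DMSO replicate 1 (0.20, adjusted p = 0.196) or resistant DMSO replicate 2 (0.29, adjusted p = 0.0641). In parental cells MT1F was at 31.6 and 43.7 FPKM under dBET6 and 45.3 and 57.8 FPKM in DMSO. The dBET6 libraries were below, and MT1F fell by 0.59 ± 0.12 (adjusted p = 4.7e-05), lower by every scaling.

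MT1G rested on 3 and 20 estimated counts under dBET6 and 2 and 4 in DMSO in parental cells. Its log2 change of 2.95 ± 0.81 (adjusted p = 0.00184) came mainly from 1 library: without parental dBET6 replicate 2 it was 0.96 (adjusted p = 0.469). In resistant cells MT1G had 2 estimated counts under dBET6 and 1 in DMSO over both libraries, too few to compare. MT1M was at 2.46 and 2.24 FPKM under dBET6 and 2.46 and 1.54 FPKM in DMSO in parental cells (0.28 ± 0.32, adjusted p = 0.436, with −0.36 by total counts and −1.48 by mitochondrial mRNAs), and at 0.10 and 0.187 FPKM under dBET6 and 0.211 and 0.215 FPKM in DMSO in resistant cells (−0.52 ± 0.83, adjusted p = 0.595). Of the 6 tested members, 2 were higher and 3 lower in dBET6 in parental cells, and 2 higher and 2 lower in resistant cells. The background was 37% higher and 39.3% lower in parental cells, and 35.7% higher and 39.5% lower in resistant cells. The members' median log2 change was −0.11 against −0.01 over all tested genes in parental cells and −0.13 against −0.06 in resistant cells.

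**Figure D3:**
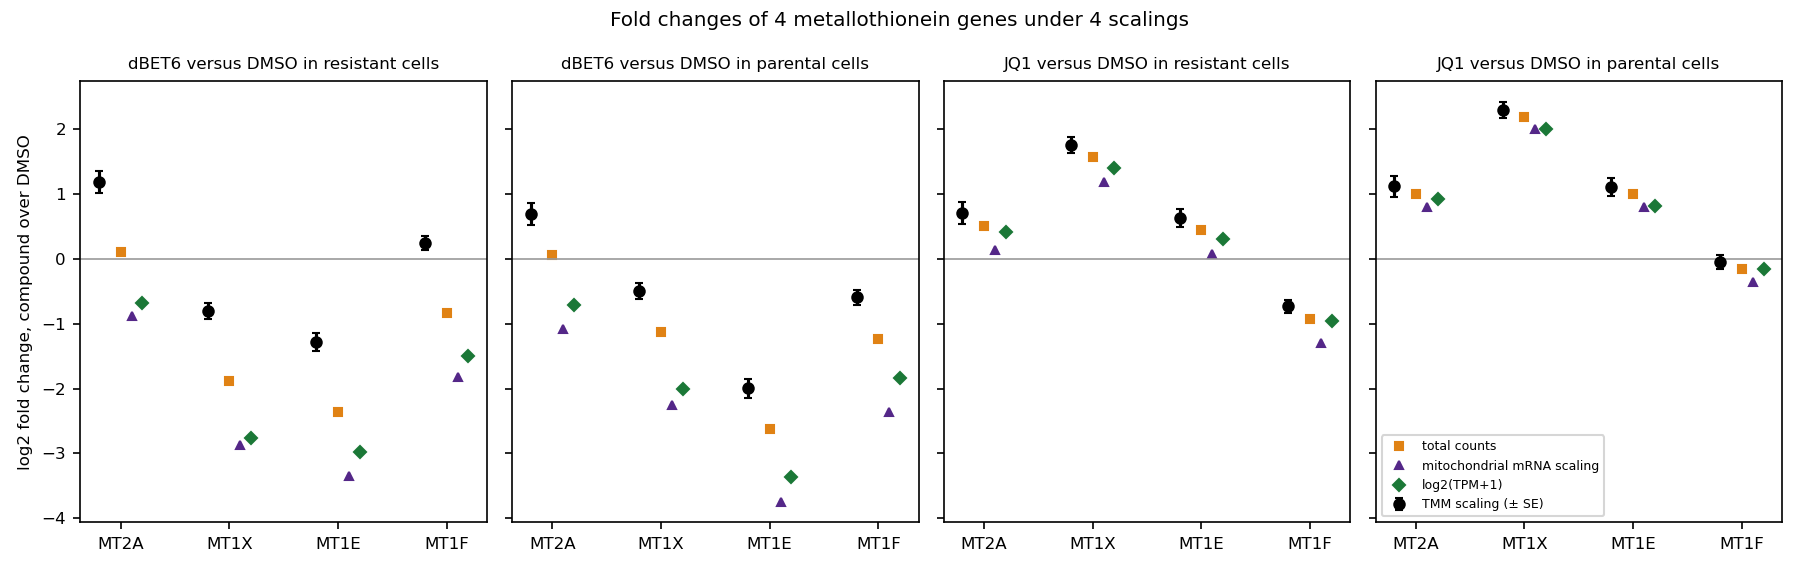
Log2 fold changes of MT2A, MT1X, MT1E and MT1F in the 4 comparisons of a drug with DMSO under TMM (with SE), total counts, mitochondrial mRNA scaling and log2(TPM + 1). The MT1X points under JQ1 are above 0 and the MT1E and MT1X points under dBET6 are below 0 by all 4 scalings, while MT2A under dBET6 runs between 1.18 and −0.88 in resistant cells.

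Compared directly at the same dose and time, dBET6 and JQ1 differed most in MT1X and MT1E. In resistant cells MT1X was at 1213 and 1279.7 FPKM under dBET6 and 7121 and 8340.2 FPKM under JQ1, and in parental cells at 781 and 939 FPKM under dBET6 and 6142 and 6206 FPKM under JQ1. The dBET6 libraries lay several-fold below the JQ1 libraries, and the log2 difference was −2.56 ± 0.13 in resistant (adjusted p = 7.04e-13) and −2.80 ± 0.13 in parental cells (adjusted p = 2.77e-13). For MT1E it was −1.92 ± 0.15 in resistant (adjusted p = 3.7e-08) and −3.10 ± 0.15 in parental cells (adjusted p = 3.31e-10). MT1X and MT1E stayed lower in dBET6 by every scaling.

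MT2A in parental cells was at 5478 and 6411 FPKM under dBET6 and 8562 and 7819 FPKM under JQ1, with a log2 difference of −0.42 ± 0.16 (adjusted p = 0.036). The call was lost with RLE (median-of-ratios) scaling (−0.30, adjusted p = 0.141) and DESeq2 (−0.30, adjusted p = 0.184). Of the 12 fits that left out 1 library, 5 lost it: without parental JQ1 replicate 1 (−0.36, adjusted p = 0.144), parental JQ1 replicate 2 (−0.48, adjusted p = 0.0617), parental dBET6 replicate 1 (−0.30, adjusted p = 0.251), parental dBET6 replicate 2 (−0.56, adjusted p = 0.0510) and resistant dBET6 replicate 1 (−0.42, adjusted p = 0.0539). In resistant cells MT2A was at 11010 and 11122 FPKM under dBET6 and 7141 and 9300.0 FPKM under JQ1. It was higher by 0.47 ± 0.16 by TMM (adjusted p = 0.0223), but −0.41 by total counts, −1.11 on log2(TPM + 1) and −1.03 by mitochondrial mRNAs. The TMM call was lost without resistant dBET6 replicate 1 (0.46, adjusted p = 0.0850), resistant dBET6 replicate 2 (0.49, adjusted p = 0.0610) or resistant JQ1 replicate 1 (0.32, adjusted p = 0.132).

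MT1F differed between the compounds in opposite directions by TMM. In resistant cells it was at 89.4 and 99.4 FPKM under dBET6 and 44.7 and 50.2 FPKM under JQ1, 0.98 ± 0.11 higher by TMM (adjusted p = 7.03e-09) but −0.55 on log2(TPM + 1) and −0.51 by mitochondrial mRNAs. In parental cells it was lower in dBET6 by 0.55 ± 0.12 (adjusted p = 0.00013), and lower by every scaling. MT1M and MT1G did not pass in either line. dBET6 against JQ1 thus had 0 higher and 4 lower of 6 members in parental cells and 2 higher and 2 lower in resistant cells. The background was 36.2% higher and 38.4% lower in parental cells, and 35.4% higher and 38.8% lower in resistant cells. The medians were −0.49 against 0.00 in parental cells and 0.28 against −0.03 in resistant cells. Of the genes called, 47.8% were higher in dBET6 in resistant and 48.6% in parental cells by TMM, against 26.2% and 32.9% by total counts, 9.78% and 10.9% on log2(TPM + 1), and 14.3% and 13.1% by mitochondrial mRNAs.

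In DMSO the resistant line carried more MT1X and MT1F and far less MT1M than the parental line. MT1M was at 0.211 and 0.215 FPKM in resistant DMSO libraries and at 2.46 and 1.54 FPKM in parental DMSO libraries, which rested on 13 and 112 estimated counts. The groups were far apart, and the ratio of library-scaled counts was 0.107 with a 95% counting interval of 0.055 to 0.190 (log2 change −3.19 ± 0.41, adjusted p = 4.52e-07). MT1M was also lower in resistant cells under both drugs, at 0.0789 to 0.187 FPKM against 1.34 to 2.46 FPKM in parental cells.

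MT1X was at 2400.4 and 2471 FPKM in resistant DMSO libraries and at 1203 and 1526 FPKM in parental DMSO libraries, and MT1F at 76.7 and 79.3 FPKM in resistant and 45.3 and 57.8 FPKM in parental DMSO libraries. Both genes' groups were separate, with log2 changes of 0.82 ± 0.12 for MT1X (adjusted p = 2.24e-05) and 0.61 ± 0.11 for MT1F (adjusted p = 3.13e-05). By mitochondrial mRNAs the MT1F difference was 0.36 (adjusted p = 0.216). MT2A, at 4962 and 5236 FPKM in resistant and 3243 and 4450 FPKM in parental DMSO libraries, did not pass (0.38 ± 0.16, adjusted p = 0.0922), although its groups did not overlap. It passed without parental DMSO replicate 2 (0.67, adjusted p = 0.000305) and with the replicate number as a block (0.40, adjusted p = 0.0143). MT1E had a log2 difference of −0.09 ± 0.14 (adjusted p = 0.667), and MT1G, with 1 estimated count in resistant and 6 in parental cells, had a log2 difference of −2.35 ± 1.39 (adjusted p = 0.191). The line comparison had 2 members higher and 1 lower of 6, where 17.4% of tested genes were higher and 21.2% lower in resistant cells, with medians of 0.15 and 0.00. Members called higher numbered 3 with no filter, with the replicate block and on log2(TPM + 1). They numbered 1 by mitochondrial mRNAs and with limma and no filter. The share of called genes that were higher was 45.0% by TMM, 53.6% by total counts and 19.4% by mitochondrial mRNAs.

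The difference of the drug responses between the lines was tested as an interaction. MT1F, nearly level under JQ1 in parental cells and lower in resistant cells, had a JQ1 response 0.69 ± 0.15 lower in resistant than in parental cells on the log2 scale (adjusted p = 0.00477), and this was 1 lower and 0 higher of 6 members against a background of 2.88% lower and 3.62% higher. It did not pass by mitochondrial mRNAs (−0.95, adjusted p = 0.0750) or with limma on log2(FPKM + 1) (−0.70, adjusted p = 0.168). The JQ1 responses of MT1X (−0.55 ± 0.17, adjusted p = 0.0603), MT1E (−0.47 ± 0.20, adjusted p = 0.193) and MT2A (−0.41 ± 0.23, adjusted p = 0.367) were also smaller in resistant cells by estimate, without passing the test. MT1X passed with DESeq2 (−0.56, adjusted p = 0.0134). With the replicate block MT1X (−0.56, adjusted p = 0.0103) and MT1E (−0.50, adjusted p = 0.0370) passed. With no filter 3 members were called lower. Without parental DMSO replicate 2, MT1X (−0.77, adjusted p = 0.00176), MT1E (−0.69, adjusted p = 0.0124) and MT2A (−0.70, adjusted p = 0.0115) all passed, and MT1X also passed without parental dBET6 replicate 1 (−0.55, adjusted p = 0.0383) or 2 (−0.55, adjusted p = 0.0386). The members' median was −0.54 against 0.00 over all tested genes, and called genes with a higher response in resistant cells made up 55.8% by TMM, 39.1% by total counts and 17.3% by mitochondrial mRNAs.

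For dBET6 the interaction was 0.84 ± 0.16 for MT1F (adjusted p = 0.000199) and 0.71 ± 0.20 for MT1E (adjusted p = 0.0186), both higher in resistant cells by TMM. By total counts these were 0.40 for MT1F (adjusted p = 0.0629) and 0.27 for MT1E (adjusted p = 0.417), and neither passed by mitochondrial mRNAs or on log2(TPM + 1). The MT1E call was lost without resistant dBET6 replicate 1 (0.72, adjusted p = 0.0569), resistant dBET6 replicate 2 (0.70, adjusted p = 0.0681), resistant DMSO replicate 1 (0.68, adjusted p = 0.0536) or parental dBET6 replicate 1 (0.57, adjusted p = 0.0987). MT2A (0.49 ± 0.23, adjusted p = 0.152) and MT1X (−0.30 ± 0.17, adjusted p = 0.205) did not pass. With the replicate block MT2A passed (0.48, adjusted p = 0.0415), as it did without parental DMSO replicate 1 (0.73, adjusted p = 0.00173). MT1X passed by total counts (−0.75, adjusted p = 0.0171), on log2(TPM + 1) (−0.76, adjusted p = 0.00816) and without parental DMSO replicate 2 (−0.52, adjusted p = 0.0116). The count was 2 higher and 0 lower of 6 against a background of 13.7% higher and 14.2% lower, with medians of 0.09 and −0.05. With no filter 3 members were called higher and 1 lower. Of the genes called, 49.1% were higher by TMM, 12.2% by total counts, 15.6% on log2(TPM + 1) and 14.2% by mitochondrial mRNAs.

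Ratios of members within a library carry no scaling between libraries, and they show the shift in make-up directly. MT2A to MT1X in FPKM was 9.08 and 8.69 in resistant dBET6 libraries, 1.00 and 1.12 in resistant JQ1 libraries, and 2.07 and 2.12 in resistant DMSO libraries. Parental libraries had 7.02 and 6.83 under dBET6, 1.39 and 1.26 under JQ1, and 2.70 and 2.92 in DMSO. The drugs moved it to opposite sides of DMSO in each line, with no overlap between groups of a line. MT2A to MT1E was 39.8 to 46.1 in the 4 dBET6 libraries and 5.99 to 9.68 in the other 8. MT1X to MT1E was 5.08 and 4.85 in resistant dBET6 libraries, 9.65 and 8.68 in resistant JQ1 libraries and 4.23 and 4.28 in resistant DMSO libraries. In parental cells this ratio was 5.67 and 5.87 under dBET6, 4.94 and 5.22 under JQ1 and 2.22 and 2.25 in DMSO, so that both drugs lay above DMSO in each line. Of the summed members, MT2A made up 87.4% under dBET6, 48.7% under JQ1 and 62.3% in DMSO in resistant cells, and 85.0% under dBET6, 52.4% under JQ1 and 65.3% in DMSO in parental cells. MT1X took 9.84% under dBET6, 46.0% under JQ1 and 29.8% in DMSO in resistant cells, and 12.3%, 39.5% and 23.3% under the same treatments in parental cells. A ratio shows unequal change and not which gene moved.

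**Figure D4:**
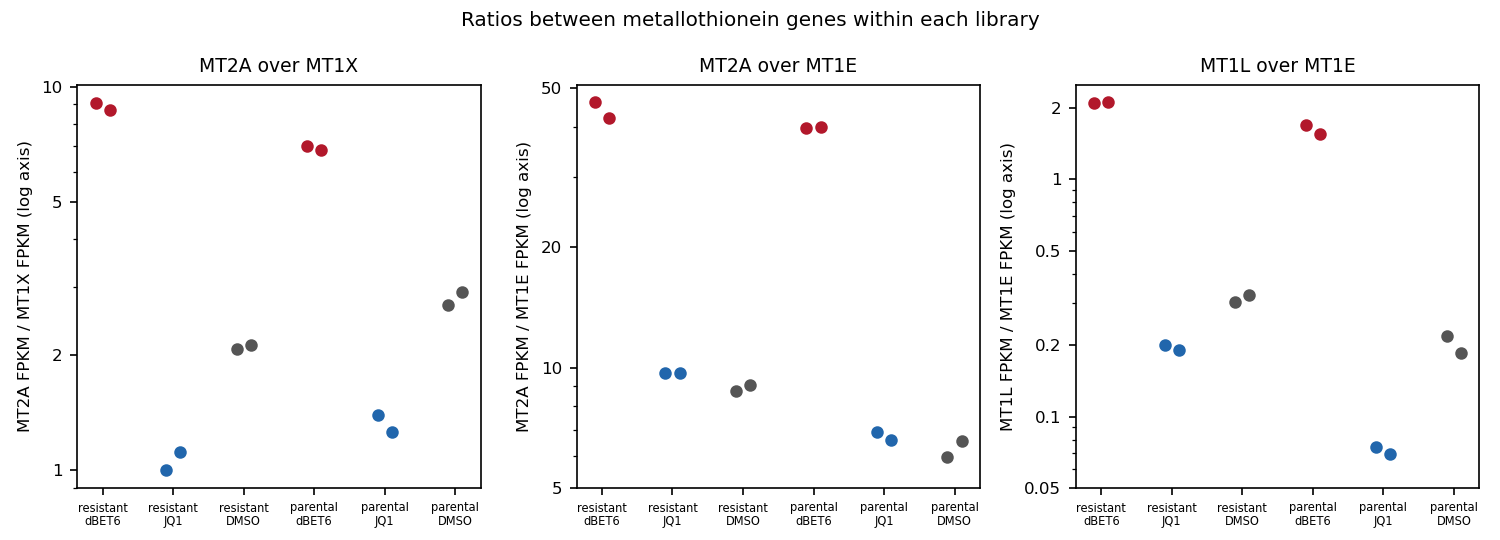
Ratios of FPKM between family genes in each library on log axes, 1 panel for each of MT2A to MT1X, MT2A to MT1E and MT1L to MT1E, with dBET6 left of JQ1 and DMSO in each line. The 4 dBET6 libraries are the highest in each panel, and MT2A to MT1X in JQ1 libraries, at 1.00 to 1.39, lies below every DMSO library.

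Across the 12 libraries the log2 levels of MT1X and MT1E had a Pearson r of 0.851, MT2A and MT1X 0.331, MT2A and MT1E −0.05, and MT1F and MT1M −0.708. These are descriptions over 6 conditions of 2 libraries each, and the points share drug, line and scaling.

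The members resemble each other in sequence, and reads that fit several genes were divided by the authors' quantification. Of the distinct 31-base words in the transcripts of each gene, the share found also in other family genes was 7.25% for MT2A, 5.30% for MT1X, 15.6% for MT1E and 3.25% for MT1F, and 23.3% for MT1G, 22.8% for MT1M and 18.9% for MT1A. MT1E shared most with MT1M, MT1M with MT1JP and MT1G with MT1H, and how far shared reads move each value was not tested. Single transcripts carried most of the level: ENST00000394485 (450 bases) held 99.2 to 99.5% of MT1X TPM in every library, ENST00000245185 (786 bases) 93.7 to 97.6% of MT2A and ENST00000306061 (704 bases) 77.8 to 93.5% of MT1E. The log2 ratio of summed counts for JQ1 against DMSO in parental cells was 1.28 over the 7 members and 1.27 over all 20 family rows, and for dBET6 against DMSO in resistant cells it was 0.97 over either.

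Outside the members, 13 further family rows were present and 4 were tested. MT1L lies between MT2A and MT1E in the cluster and is listed in RefSeq as a transcribed pseudogene. It was at 501 and 559 FPKM in resistant dBET6 libraries and 173 and 187 FPKM in resistant DMSO libraries. In parental cells it was at 233 and 248 FPKM under dBET6 and 119 and 126 FPKM in DMSO. The dBET6 libraries were above DMSO, and MT1L rose by 1.76 ± 0.10 in resistant (adjusted p = 3.57e-15) and 1.16 ± 0.10 in parental cells (adjusted p = 6.05e-11) by TMM and also by total counts (0.68 and 0.52), but was lower by mitochondrial mRNAs (−0.30 and −0.61) and on log2(TPM + 1) (−0.25 and −0.37). MT1L to MT1E was 1.55 to 2.12 in the 4 dBET6 libraries and 0.0693 to 0.324 in the other 8. Under JQ1 in parental cells MT1L fell to 92.3 and 82.4 FPKM, against 119 and 126 FPKM in DMSO (−0.34 ± 0.10, adjusted p = 0.00773), while MT1E rose. MT3, the brain metallothionein also known as growth inhibitory factor, was at 3.06 and 4.13 FPKM in resistant and 2.10 and 3.11 FPKM in parental dBET6 libraries, against 0.168 to 0.665 FPKM in DMSO. It rose in both lines, by 3.64 ± 0.59 in resistant (adjusted p = 3.59e-06) and 2.36 ± 0.55 in parental cells (adjusted p = 0.000354), positive by every scaling. In parental cells it did not pass by mitochondrial mRNAs (0.61, adjusted p = 0.352) or on log2(TPM + 1) (0.56, adjusted p = 0.0758). MT3 rested on 16 and 19 estimated counts under dBET6 in each line and on 2 to 9 in DMSO. MT1JP and MT1DP were also low, with at most 42 and 15 estimated counts in a library. MT1JP changed by −1.90 under dBET6 in resistant cells by TMM and by −2.93 by total counts (adjusted p = 0.000876). Under JQ1 it was 1.09 in parental cells by TMM and 0.97 by total counts (adjusted p = 0.0534). MT1DP changed by −3.30 under JQ1 in resistant cells by TMM and by −3.50 by total counts (adjusted p = 0.0296). The other 9 rows were not tested.

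The companion lists are read against the same background as the members: under JQ1 20.8% of tested genes rose and 23.1% fell in resistant cells and 22.8% rose and 26.1% fell in parental cells, and under dBET6 35.7% were higher and 39.5% lower in resistant cells and 37% higher and 39.3% lower in parental cells. By total counts 2450 of 19093 genes rose and 6212 fell under JQ1 in resistant cells, and 3444 and 5998 in parental cells. Under dBET6 the same scaling gave 3307 higher and 11381 lower in resistant cells, and 4440 and 10070 in parental cells. By mitochondrial mRNAs 595 rose and 8325 fell under JQ1 in resistant cells, and 1556 and 5699 in parental cells. Under dBET6 that scaling gave 1389 and 14150 in resistant cells, and 1772 and 13753 in parental cells. Differences between a list and the members were not tested. SLC30A1, the zinc exporter of the cell surface, was at 51.3 and 49.2 FPKM in resistant dBET6 libraries, 6.87 and 6.10 in resistant JQ1 libraries, and 8.35 and 7.94 in resistant DMSO libraries. SLC30A1 in parental cells was at 43.9 and 45.6 FPKM under dBET6, 6.41 and 6.50 under JQ1, and 8.73 and 9.46 in DMSO. It stood above DMSO under dBET6 and below it under JQ1, without overlap. Against DMSO it rose under dBET6 by 2.55 ± 0.09 in resistant (adjusted p = 2.64e-19) and 2.31 ± 0.09 in parental cells (adjusted p = 2.08e-18), and fell under JQ1 by 0.30 ± 0.09 (adjusted p = 0.00708) and 0.48 ± 0.09 (adjusted p = 5.74e-05), with the same signs by every scaling. Of the 10 zinc exporters, 3 rose and 6 fell under dBET6 in each line, with SLC30A7 (−2.45 in resistant, −1.69 in parental cells) and SLC30A5 (−1.89 and −1.56), which load zinc into the secretory pathway, among those that fell by every scaling. The exporters' median was −1.26 in resistant and −0.98 in parental cells. Under JQ1, 1 exporter rose and 2 fell in resistant cells and 2 rose and 2 fell in parental cells. SLC30A10, best known as a manganese exporter, fell most (−2.44 ± 0.25, adjusted p = 8.55e-09, and −2.69 ± 0.28, adjusted p = 5.08e-09), and the medians were 0.01 in resistant and −0.13 in parental cells. Of the 12 tested zinc importers, 0 rose and 5 fell under JQ1 in resistant cells and 1 rose and 6 fell in parental cells, with medians of −0.14 and −0.21. SLC39A7, which releases zinc from the endoplasmic reticulum, fell under JQ1 (−0.56 ± 0.08 in resistant, adjusted p = 3.37e-06, and −0.73 ± 0.08 in parental cells, adjusted p = 3.54e-08) and under dBET6 (−1.39 ± 0.09, adjusted p = 6.14e-14, and −1.28 ± 0.09, adjusted p = 2.72e-13), by every scaling. Under dBET6, 6 importers were higher and 4 lower in resistant cells by TMM but 2 and 9 by total counts, and 7 higher and 3 lower in parental cells by TMM but 2 and 7 by total counts. The importers' medians under dBET6 by TMM were 0.36 in resistant and 0.26 in parental cells.

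MTF1 itself, named here for its role and not by the rule on list genes, was at 5.43 and 5.10 FPKM under dBET6, 5.20 and 5.73 under JQ1, and 4.56 and 5.99 in DMSO in resistant cells. Parental MTF1 was at 9.28 and 9.36 FPKM under dBET6, 4.29 and 6.05 under JQ1, and 5.74 and 5.19 in DMSO. The parental dBET6 libraries stood above the rest on this scale, and MTF1 was 1.47 ± 0.09 higher there by TMM (adjusted p = 1.1e-14), but −0.30 by mitochondrial mRNAs and −0.50 on log2(TPM + 1). The FPKM of these parental groups differed by less than this TMM change, and why was not tested. In resistant cells the FPKM under dBET6 and in DMSO overlapped, but FPKM alone do not give the TMM change there. Under JQ1 its log2 change was 0.08 in resistant (adjusted p = 0.499) and 0.19 in parental cells (adjusted p = 0.0639). Of the 10 metal and stress transcription factors, 0 rose and 4 fell under JQ1 in resistant cells and 0 rose and 2 fell in parental cells, with medians of −0.08 and −0.11. Under dBET6, 3 were higher and 6 lower in resistant (median −0.61) and 4 higher and 5 lower in parental cells (median −0.62), and by total counts 1 and 8 in resistant and 2 and 6 in parental cells. USF1, a basal activator of metallothionein genes described in mouse, fell under dBET6 by 3.29 ± 0.14 (adjusted p = 7.43e-18) and 3.03 ± 0.13 (adjusted p = 1.32e-17), and KEAP1, the repressor of the oxidative stress factor NFE2L2, fell by 2.78 ± 0.10 (adjusted p = 2.03e-19) and 1.61 ± 0.09 (adjusted p = 3.36e-15), in resistant and parental cells in that order, by every scaling.

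The glutathione list holds genes of glutathione synthesis and use, the other main thiol system, and also a thioredoxin reductase gene. Its genes mostly rose under JQ1 by TMM, and their counts under both drugs depended on the scaling. Of the 8 genes, 5 rose and 1 fell under JQ1 in resistant cells (median 0.61) and 7 rose and 0 fell in parental cells (median 0.83) by TMM, against 1 and 1 in resistant (median 0.03) and 4 and 0 in parental cells (median 0.53) by mitochondrial mRNAs. Under dBET6, 6 rose and 0 fell in resistant (median 1.52) and 8 rose and 0 fell in parental cells (median 1.56) by TMM, but 2 rose and 4 fell in resistant and 3 rose and 3 fell in parental cells by mitochondrial mRNAs. TXNRD1, thioredoxin reductase, was at 452 and 474 FPKM under dBET6, 201 and 190.3 under JQ1, and 60.6 and 58.2 in DMSO in resistant cells. Its log2 change against DMSO was 3.05 ± 0.10 under dBET6 (adjusted p = 4.14e-20) and 1.41 ± 0.09 under JQ1 (adjusted p = 1.52e-12) in resistant cells, with the same sign by every scaling. GCLC, the catalytic subunit of glutamate-cysteine ligase, rose under JQ1 by 0.90 ± 0.08 in resistant (adjusted p = 7.05e-10) and 1.39 ± 0.08 in parental cells (adjusted p = 1.71e-13), and was 0.32 in resistant cells by mitochondrial mRNAs (adjusted p = 0.190).

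HMOX1, the heme oxygenase that frees iron from heme, was at 7503 and 6810.6 FPKM under dBET6 and 462 and 459 FPKM in DMSO in resistant cells, and at 1671 and 1631 FPKM under dBET6 and 98.3 and 121 FPKM in DMSO in parental cells. The groups were far apart, and HMOX1 rose by 3.95 ± 0.11 (adjusted p = 1.94e-21) in resistant and 3.91 ± 0.11 in parental cells (adjusted p = 3.01e-21), and was 2.07 ± 0.10 higher in resistant than in parental DMSO libraries (adjusted p = 4.62e-15), by every scaling. FTL and FTH1, the ferritin chains that store iron, rose under both drugs in both lines by TMM. FTH1 rose under JQ1 by 1.01 ± 0.09 in resistant (adjusted p = 6.69e-10) and 1.34 ± 0.09 in parental cells (adjusted p = 2.45e-12), but by mitochondrial mRNAs it was 0.44 in resistant cells (adjusted p = 0.0756). Under dBET6 in parental cells neither passed by mitochondrial mRNAs, at 0.01 for FTL (adjusted p = 0.971) and 0.25 for FTH1 (adjusted p = 0.273). In the iron list 4 rose and 2 fell under JQ1 in resistant and 3 rose and 2 fell in parental cells of 8 tested, with medians of 0.39 and 0.16 by TMM, and by mitochondrial mRNAs 1 rose and 2 fell in resistant and 3 rose and 2 fell in parental cells. Under dBET6, 5 were higher and 3 lower in resistant (median 0.82) and 4 higher and 3 lower in parental cells (median 0.54), against 3 and 4 in resistant and 4 and 4 in parental cells by total counts. Of 11 copper genes, 5 rose and 0 fell under JQ1 in resistant and 6 rose and 1 fell in parental cells, with medians of 0.28 and 0.37 by TMM. By mitochondrial mRNAs 0 rose and 3 fell in resistant (median −0.30) and 1 rose and 1 fell in parental cells (median 0.08). Under dBET6, 5 were higher and 5 lower in resistant (median −0.46) and 4 higher and 4 lower in parental cells (median 0.03), against 2 and 8 in resistant and 2 and 6 in parental cells by total counts. CCS, the copper chaperone of superoxide dismutase, led under JQ1 at 0.80 ± 0.09 in resistant (adjusted p = 4.03e-08) and 1.15 ± 0.09 in parental cells (adjusted p = 5.43e-11), and was 0.23 in resistant cells by mitochondrial mRNAs (adjusted p = 0.375). Of the 8 glucocorticoid receptor targets, 5 rose and 0 fell under JQ1 in resistant and 3 rose and 0 fell in parental cells, with medians of 0.41 and 0.34 by TMM. By mitochondrial mRNAs 0 rose and 1 fell in resistant (median −0.16) and 0 rose and 0 fell in parental cells (median 0.05). Under dBET6, 4 were higher and 3 lower in each line by TMM, with medians of 0.89 in resistant and 0.70 in parental cells. By total counts 3 were higher and 4 lower in resistant (median −0.18) and 4 and 4 in parental cells (median 0.06). By mitochondrial mRNAs 2 were higher and 4 lower in resistant (median −1.18) and 3 and 4 in parental cells (median −1.06). FKBP5 rose under JQ1 by TMM (0.69 ± 0.11, adjusted p = 5.6e-06, in resistant and 0.77 ± 0.11, adjusted p = 1.61e-06, in parental cells), without passing by mitochondrial mRNAs (0.12, adjusted p = 0.685, and 0.50, adjusted p = 0.0588). It fell under dBET6 in resistant cells (−1.02 ± 0.13, adjusted p = 3.76e-08) and PER1 rose under dBET6 by 6.63 ± 0.13 in resistant (adjusted p = 2.72e-23) and 5.11 ± 0.12 in parental cells (adjusted p = 1.65e-21), each by every scaling.

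**Figure D5:**
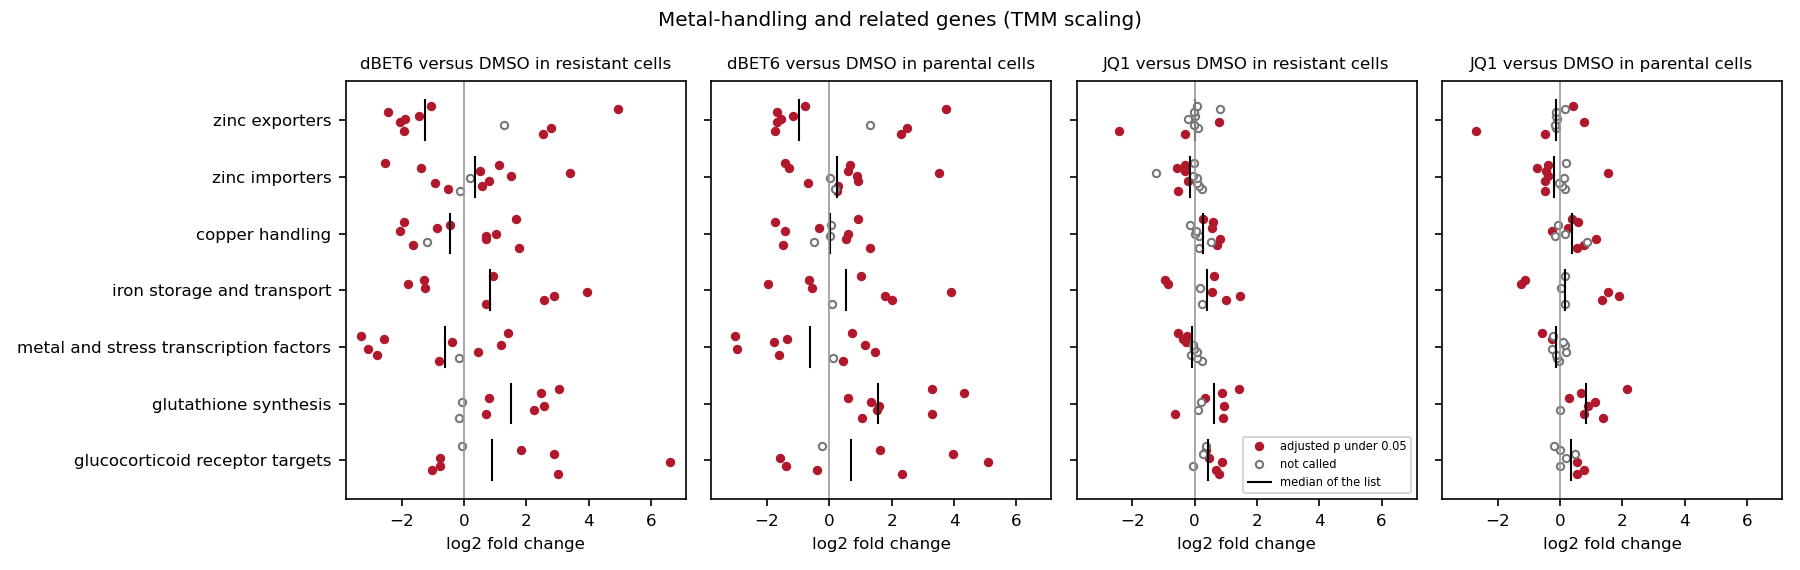
Log2 fold changes of every tested gene of the companion lists in the 4 comparisons of a drug with DMSO, by TMM. The lists are zinc exporters, zinc importers, copper, iron, metal and stress transcription factors, glutathione and glucocorticoid receptor targets. Red points have an adjusted p under 0.05 and black bars are list medians. The genes of the glutathione list lie mostly above 0 in all 4. The members are not drawn, and their median was 0.67 and 1.12 under JQ1 in resistant and parental cells and −0.13 and −0.11 under dBET6.

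The genes that flank the cluster, picked by position in the RefSeq order after the members' values were known, were OGFOD1 and BBS2 on one side and NUP93 on the other. OGFOD1 fell under dBET6 by 1.84 ± 0.10 in resistant (adjusted p = 3.66e-15) and 1.26 ± 0.10 in parental cells (adjusted p = 3.56e-12). BBS2 fell by 1.55 ± 0.10 (adjusted p = 5.72e-14) and 1.44 ± 0.10 (adjusted p = 2.06e-13), and NUP93 by 0.87 ± 0.09 (adjusted p = 8.67e-10) and 0.40 ± 0.09 (adjusted p = 0.000148), in the same lines and by every scaling. Under JQ1 in resistant cells none of the 3 passed, with log2 changes of −0.03 for OGFOD1 (adjusted p = 0.808), 0.17 for BBS2 (adjusted p = 0.124) and −0.14 for NUP93 (adjusted p = 0.185). In parental cells JQ1 gave −0.34 for OGFOD1 (adjusted p = 0.00264), 0.23 for BBS2 (adjusted p = 0.0283; its sign changed with the scaling) and −0.41 for NUP93 (adjusted p = 0.000169).

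Over the 12 libraries the genes whose log2 level was most like that of the summed members were SLC9A3 (Pearson r 0.944), GCAT (0.942), CCS (0.941), CASC4 (0.940) and NEK9 (0.940), of 8683 genes with a mean of at least 10 CPM (counts scaled to library size). CCS was at 68.5 and 69.2 FPKM under dBET6, 73.9 and 76.0 under JQ1, and 43.0 and 49.6 in DMSO in resistant cells, and at 46.0 and 36.2 under dBET6, 67.0 and 63.7 under JQ1, and 29.8 and 30.7 in DMSO in parental cells. These points share drug, line and scaling, and the likeness is a description.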

How the data were processed

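RNA of 12 U87 libraries was sequenced after polyA selection and a standard Illumina protocol, per the labels' protocols. The authors used kallisto, DESeq2 and the build hg19, per the submitters' processing notes; versions, transcript set and strand setting: not given in the sources used here. The deposited files per library hold estimated counts and TPM per transcript. The deposited gene table holds FPKM; its columns do not sum to a common total, as TPM columns do, and how the authors scaled them between libraries is not known here.

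Estimated counts were summed per gene through GENCODE release 29 (92.6% of transcripts matched, holding 95.0 to 96.3% of counts) and rounded to whole numbers. After filterByExpr, 19093 genes remained, TMM factors were computed on them, and edgeR 4.0.16 gave the tests (quasi-likelihood, robust, all 12 libraries, no block; R 4.3.3), with Benjamini-Hochberg adjustment over all tested genes and a threshold of 0.05. SE is the size of the log2 fold change over the square root of F. The procedure was also run on simulated counts with set changes. The outcome of that run is not given here, and nothing is drawn from it. Alternatives were RLE, total-count and mitochondrial mRNA scaling, DESeq2 1.42.0, no filter, limma 3.58.1 on log2(FPKM + 1) and log2(FPKM + 0.1), the replicate block, only the libraries compared, each library left out with the same genes tested, and, added after seeing the data, limma on log2(TPM + 1) and 1 crossed pairing. Counting intervals cover counting error only.

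All members were named, with at most 4 genes per companion list and comparison, those with the smallest p. Members and lists were chosen with earlier results of these data known. Replicate numbers were taken from the titles.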

Additional observations from a re-analysis of the deposited data

Results flagged for a closer look

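For 2 members, MT1F and MT1E, a drug response differed between the lines in the edgeR test of the interaction, in 3 results. The dBET6 response of MT1F was 0.838 higher in resistant than in parental cells on the log2 scale, that of MT1E was 0.712 higher, and the JQ1 response of MT1F was −0.691, lower in resistant cells. The MT1F difference under dBET6 was 0.40 by total counts (adjusted p = 0.0629), 0.55 by mitochondrial mRNAs (adjusted p = 0.229) and 0.34 on log2(TPM + 1) (adjusted p = 0.117). The MT1F difference under JQ1 was −0.77 by total counts (adjusted p = 0.00540) and −0.95 by mitochondrial mRNAs (adjusted p = 0.0750). The part of library composition in these differences was not tested.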

How the results depend on the processing

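Of 54 member fold changes tested, 31 passed the threshold. Direction and side of the threshold held for 53 with RLE, 51 with DESeq2, 48 with no filter, 49 with limma on log2(FPKM + 1), 47 with log2(FPKM + 0.1), 40 with limma and no filter, 39 with total counts, 36 with mitochondrial mRNAs and 36 with log2(TPM + 1), and for all 45 with only the libraries compared. Of 648 values with 1 library left out, 611 held, 18 lost and 8 gained the call, 11 uncalled values changed sign or moved, and 0 called values turned round. Depth limits MT1A, MT1G and MT1M, which rest on few counts.

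Signs turned round for called values, or for MT1M values that were called under the other scaling. By total counts these were MT1F under dBET6 in resistant cells (−0.83) and MT2A for dBET6 against JQ1 in resistant cells (−0.41). By mitochondrial mRNAs they were MT1M (−1.48) and MT2A (−1.07) under dBET6 in parental cells, MT1F (−1.82) and MT2A (−0.88) under dBET6 in resistant cells, MT1M for dBET6 against JQ1 in parental cells (−0.94), and MT1F (−0.51) and MT2A (−1.03) for dBET6 against JQ1 in resistant cells. On log2(TPM + 1) they were MT1M (−0.72) and MT2A (−0.70) under dBET6 in parental cells, MT1F (−1.50) and MT2A (−0.69) under dBET6 in resistant cells, and MT1F (−0.55) and MT2A (−1.11) for dBET6 against JQ1 in resistant cells. Scaling by construction shifts all genes of a library together; no other cause was tested.

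The larger moves, in proportion, in counts of members called were as follows, and smaller ones, such as from 2 to 3, are left out. By total counts, 1 was higher in dBET6 in parental and 0 in resistant cells, 1 under JQ1 in resistant cells, 0 for dBET6 against JQ1 in resistant cells, and the dBET6 response difference had 0 higher and 1 lower. Of all 19093 tested genes, total counts called 4440 higher and 10070 lower for parental dBET6 against DMSO. For resistant dBET6 the counts were 3307 higher and 11381 lower against DMSO, and 3713 higher and 10457 lower against JQ1. The dBET6 response difference had 908 genes higher and 6540 lower. By mitochondrial mRNAs, 0 members were higher and 5 lower in dBET6 in each line, 1 was higher under JQ1 in resistant cells, 0 were higher and 4 lower for dBET6 against JQ1 in resistant cells, 1 was higher between the lines in DMSO, 0 were lower in the JQ1 response difference and 0 higher in that of dBET6. Here 1772 of the 19093 genes were higher and 13753 lower for parental dBET6 against DMSO. For resistant dBET6 they were 1389 and 14150 against DMSO, and 2016 and 12112 against JQ1. On log2(TPM + 1), 0 members were higher and 5 lower in dBET6 in parental cells, 0 and 4 in resistant cells, 0 and 4 for dBET6 against JQ1 in resistant cells, and 0 and 1 in the dBET6 response difference. Of 14460 genes tested on that scale, 1073 were higher and 11168 lower for parental dBET6 against DMSO. For resistant dBET6 they were 932 and 11755 against DMSO, and 1183 and 10919 against JQ1. Most genes were thus lower under dBET6 by these 2 scalings, and whether the members differed from them was not tested. With DESeq2, 2 members were lower in the JQ1 response difference. With no filter, 1 was higher in dBET6 in resistant cells, 3 were lower in the JQ1 and 1 in the dBET6 response difference. With limma on log2(FPKM + 1), 1 was higher in dBET6 in resistant cells and 0 were lower in the JQ1 response difference; with log2(FPKM + 0.1), 1 was higher in dBET6 in parental cells and 0 were lower in the JQ1 response difference. With limma and no filter, 1 was higher in dBET6 in each line, for dBET6 against JQ1 in resistant cells and between the lines, 2 were lower for dBET6 against JQ1 in parental cells, 0 were lower in the JQ1 and 0 higher in the dBET6 response difference. With only the libraries compared, 1 was higher in dBET6 in parental cells, since MT1G was then not tested.

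Genes called numbered 9341 for JQ1 in parental cells, 8391 for JQ1 in resistant cells, 7357 between the lines, 1241 for the JQ1 and 5333 for the dBET6 response difference. In the same order limma gave 6071, 5319, 3814, 236 and 3289 on log2(FPKM + 0.1) and 5622, 4611, 3447, 274 and 3251 with no filter. On log2(FPKM + 1) it gave 5541 for JQ1 in resistant cells, 4017 between the lines, and 301 and 3509 for the JQ1 and dBET6 response differences. On log2(TPM + 1) it gave 4547 between the lines and 388 for the JQ1 response difference. Mitochondrial mRNA scaling gave 335 for the JQ1 and 2727 for the dBET6 response difference.

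Leaving out 1 library at a time, genes called for the JQ1 response difference ran from 546 to 1493. The lone library left in a group was then assumed to vary like the other groups. Members called higher ran from 1 to 2 in dBET6 in parental cells, 1 to 2 in resistant cells, 1 to 2 for dBET6 against JQ1 in resistant cells and 1 to 3 in the dBET6 response difference. Members called lower ran from 1 to 4 in the JQ1 and from 0 to 1 in the dBET6 response difference.

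Correlations of same-numbered libraries' deviations ran from −0.150 to 0.114, so the replicate numbers were not taken to pair libraries. With the replicate block 50 of 54 member values held and 4 gained a call, and 3 members were lower in the JQ1 response difference in place of 1. With the parental JQ1 numbers crossed in that block, chosen after seeing the data, 9212 genes were called for JQ1 in parental cells, against 9189 uncrossed.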
